A study of Homo sapiens with 2 samples.

Results

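The EGF receptor family and its ligands were followed in SW480 cells that carried TFAP2E and in SW480 cells that carried the empty vector. The family was taken as 10 genes, chosen by name: the 4 receptors EGFR, ERBB2, ERBB3 and ERBB4 and the 6 ligands HBEGF, AREG, EREG, TGFA, BTC and EPGN. Of these, 9 had a probe set under their symbol, 1 each, among the 18417 genes of the array, and AREG was not analysed here. In 5 of the 9 the higher of the 2 values was at or above 5.55 on the log2 scale, which is the median taken over every probe set and both arrays. These were EGFR, ERBB2, ERBB3, HBEGF and TGFA, which thus belong to the 11548 genes called measured. ERBB4, EREG, BTC and EPGN lay below that value on both arrays and are called dim.

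SW480 is an established human colorectal adenocarcinoma line. Both groups were stable transfectants made with the pTarget expression plasmid and kept under Geneticin for weeks, 1 with the coding sequence of TFAP2E and 1 with no insert. TFAP2E encodes AP-2 epsilon, a DNA-binding transcription factor of the AP-2 family. Each group has 1 Affymetrix array of biotin-labelled target from total RNA, so that no value has an error and no difference a test. The labels speak of clones picked one by one after selection and checked for the introduced gene. They leave out whether an array holds 1 clone or several, so that a difference between clones and a difference due to TFAP2E cannot be told apart. In RNA from a whole culture, fewer cells expressing a gene and less RNA per cell cannot be told apart either.

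The EGF receptor is a cell surface tyrosine kinase that pairs with itself or with a relative when a ligand binds. Ligands are made as membrane proteins and are cut free by proteases of the ADAM family. Active receptors recruit adaptors that switch on RAS and the ERK kinases, PI3K and AKT. ERBB2 binds no known ligand and acts as a partner, ERBB3 has little kinase activity of its own, and ERBB4 binds neuregulins. In the gut epithelium the pathway supports the growth and renewal of crypt cells, and antibodies against EGFR are used in colorectal cancer.

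The array values are log2 RMA values, RMA being a summary of the probes of each probe set after both arrays are brought to a common distribution. Every difference is the value on the TFAP2E array minus that on the empty vector array, taken before rounding. The arrays correlated with a Pearson r of 0.986 across the 11548 measured genes. Their differences had a median of 0.04, and the central 95% of them lay between -0.37 and 0.47. This range holds assay noise and real differences together. The TFAP2E probe set itself read 6.81 on the TFAP2E array and 6.77 on the other (difference 0.04), so that the introduced gene is not seen. Whether its probes lie in the introduced coding sequence is not known here, and all directions rest on the labels. Of 13 colon epithelial markers 8 were measured, with EPCAM at 11.1 on the TFAP2E array and 11.2 on the empty vector array, while the differentiation markers KRT20 and MUC2 were dim. Of those 8 markers 6 were lower on the TFAP2E array, with E-cadherin (CDH1) lowest at -0.71 and villin (VIL1) highest at 1.28. VIL1 read 6.22 on the TFAP2E array and 4.94 on the empty vector array, where it lay below the filter value. Among markers of other cells, 4 of 10 for fibroblasts, 2 of 7 for endothelium and 2 of 8 for leukocytes were measured. The highest level was that of VIM, on the fibroblast list, at 9.85 on the TFAP2E array and 9.61 on the empty vector array. The pan-leukocyte gene PTPRC was dim, at 2.74 on both arrays. The largest difference among the measured markers of other cells was 0.57, for the lysosomal and macrophage gene CD68. The part of any other cell type in the values of the EGF receptor family was not tested.

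The starts of 3 members are shown because these are the measured ligands and the receptor with the highest difference, and because AP-2 factors bind the palindrome GCCNNNGGC, which reads the same on both strands. Each sequence is the 250 bases before a RefSeq transcription start (GRCh38.p14), written 5′ to 3′ along the gene, with each match to the palindrome in capitals.

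EGFR, chr7:55018767-55019016, plus strand: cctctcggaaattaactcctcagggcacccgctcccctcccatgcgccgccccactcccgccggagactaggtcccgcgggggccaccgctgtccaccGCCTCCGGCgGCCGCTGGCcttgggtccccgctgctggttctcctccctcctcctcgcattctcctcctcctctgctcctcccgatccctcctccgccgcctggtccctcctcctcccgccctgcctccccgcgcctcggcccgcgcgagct
HBEGF, chr5:140346604-140346853, minus strand: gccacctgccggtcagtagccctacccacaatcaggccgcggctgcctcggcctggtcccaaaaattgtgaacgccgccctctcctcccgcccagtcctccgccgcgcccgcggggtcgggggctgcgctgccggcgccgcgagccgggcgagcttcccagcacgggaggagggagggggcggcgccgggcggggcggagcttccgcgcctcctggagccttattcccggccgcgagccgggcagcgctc
TGFA, chr2:70553827-70554076, minus strand: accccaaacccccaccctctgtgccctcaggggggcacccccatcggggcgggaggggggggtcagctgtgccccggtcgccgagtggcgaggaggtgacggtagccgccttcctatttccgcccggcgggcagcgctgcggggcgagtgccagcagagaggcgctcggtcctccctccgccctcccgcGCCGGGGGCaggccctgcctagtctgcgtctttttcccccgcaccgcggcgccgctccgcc

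The EGFR window held 2 matches, which begin 152 and 142 bases before the start and do not overlap. Another EGFR match ends past the start, beyond the sequence shown, and is not counted here. The TGFA window held 1 match, which begins 61 bases before the start, and the HBEGF window none. EGFR and TGFA each have a second annotated start in the table, whose windows held no match, and no match was found in the windows of AREG, BTC, EPGN, ERBB2, ERBB4 and EREG. The ERBB2 window (chr17:39687844-39688093) lies before the most upstream start of that gene, and its other starts, like those of ERBB3, were not examined. Thus 2 of the 11 windows of 9 members held the palindrome. For comparison, 19.8% of all 35116 such windows held at least 1 match and 4.04% held 2 or more. These matches describe letters of the reference sequence, not binding. Only this exact palindrome was searched, and variant forms of it were not looked for. HBEGF, with no match in its window, and EGFR, with 2, were the members with the highest array differences. Whether the matches bear on these differences was not tested.

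Among the receptors EGFR had the largest difference. EGFR (probe set 8132860) read 7.99 with TFAP2E and 7.48 with the empty vector. It was 1.43-fold higher on the TFAP2E array (log2 difference 0.52), which ranked 191 from the top of the 11548 measured genes. Genes within 0.5 of EGFR in mean level had a central 95% from -0.35 to 0.45, and 43 of these 2888 genes, 1.49%, had a larger difference. EGFR thus lay just outside the spread of genes of its level, with no replicate to show how far it varies between cultures.

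The partners of EGFR were close to level. ERBB2, the receptor without a ligand, read 7.56 on the TFAP2E array and 7.61 on the empty vector array (difference -0.05). ERBB3, which signals mainly through its partners, read 7.26 and 7.37 in the same order (difference -0.11). Both lay well inside the spread of genes of their level, which ran from -0.36 to 0.45 for ERBB2 and from -0.37 to 0.45 for ERBB3. ERBB4 was dim, at 4.18 and 4.16 (difference 0.02), so that no change of it could be read here in either direction.

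Among the ligands HBEGF stood highest. HBEGF (probe set 8114572) encodes heparin-binding EGF-like growth factor, a ligand of EGFR and ERBB4, and its transcript is also induced by ERK signalling itself. It read 6.61 on the TFAP2E array and 6.01 on the empty vector array, where it lay only 0.46 above the filter value. HBEGF was 1.52-fold higher on the TFAP2E array (difference 0.61) and ranked 93 of the 11548 measured genes. Genes within 0.5 of its level had a central 95% from -0.38 to 0.49, and 32 of 3086, 1.04%, had a larger difference.

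TGFA, transforming growth factor alpha, is a ligand of EGFR. It read 8.23 with TFAP2E and 8.13 with the empty vector. Its difference of 0.10 lay near the 0.06 that was the median of genes of its level, and 41.5% of those genes had a larger one. The measured ligands therefore split, with HBEGF outside the spread of genes of its level and TGFA at its middle.

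The other ligands were dim. EREG, epiregulin, read 4.87 on the TFAP2E array and 5.05 on the empty vector array (difference -0.18). BTC, betacellulin, read 4.21 and 4.43 in the same order (difference -0.22), and EPGN, epigen, 2.06 and 1.99 (difference 0.07). These genes lie near each other on chromosome 4, together with AREG. Their differences lay inside the spread of all genes of their level, dim ones included, which ran from -0.46 to 0.45 for EREG and from -0.44 to 0.41 for BTC. No direction is read from values at these levels.

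**Figure D1:**
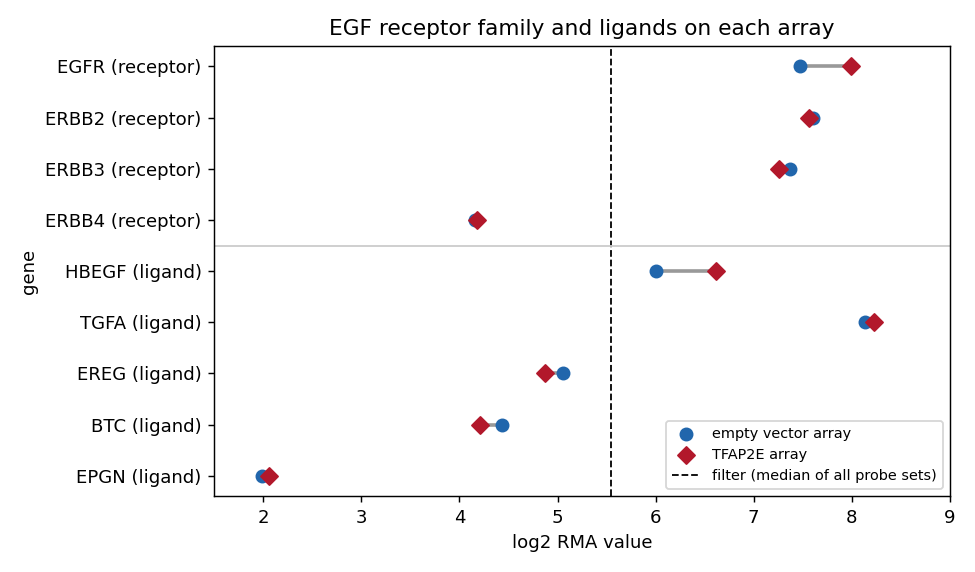
Log2 RMA value (x axis) of the 9 members with a probe set (y axis) on the empty vector array (blue circles) and the TFAP2E array (red diamonds), 1 array each. The dashed line is the filter value of 5.55. EGFR and HBEGF have the widest gaps, and ERBB4, EREG, BTC and EPGN lie left of the line. Values of different genes come from different probes and have no common scale.

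Set side by side, 1 of the 3 measured receptors was higher on the TFAP2E array and 2 were lower, with a median difference of -0.05. Both measured ligands were higher, with a median of 0.35. Over all members with a probe set, the 4 receptors had a median of -0.01 and the 5 ligands one of 0.07, with 2 receptors and 3 ligands higher. The order turned with the filter. With the filter value set at the 25th percentile the receptor median was -0.01 and the ligand median -0.04, and at the 75th percentile they were 0.24, over EGFR and ERBB2, and 0.10, for TGFA alone. The data therefore do not separate receptors from ligands as groups. Across all 11548 measured genes the median was 0.04, with 59.2% higher.

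No member differed by 2-fold, a fixed rule of size that 23 of the 11548 measured genes passed (0.199%), 10 of them higher (0.0866%) and 13 lower (0.113%) on the TFAP2E array. At 1.5-fold, or 0.58 on the log2 scale, HBEGF was the 1 of 5 measured members that passed. Of all measured genes 1.5% passed in either direction, 0.892% higher and 0.606% lower. With 5 members, a count of 1 says nothing about the family as a whole.

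**Figure D2:**
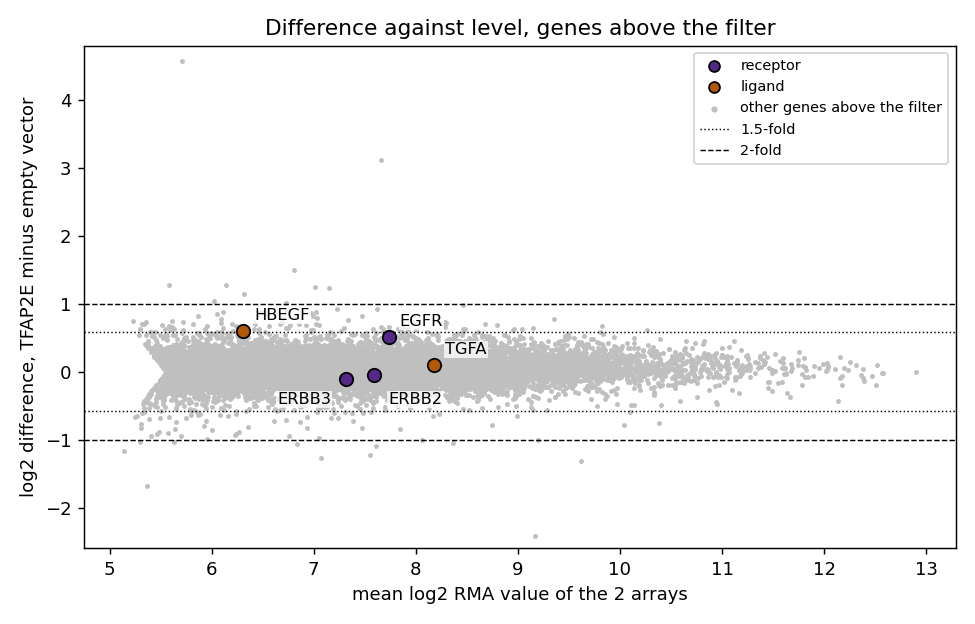
Log2 difference, TFAP2E minus empty vector (y axis), against the mean log2 RMA value of the 2 arrays (x axis) for the 11548 measured genes in grey, with the measured receptors in purple and ligands in orange. Dotted and dashed lines mark 1.5-fold and 2-fold. HBEGF at 0.61 and EGFR at 0.52 lie at the upper edge of the cloud, and ERBB2, ERBB3 and TGFA lie inside it.

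The chromosomal neighbours of EGFR and of HBEGF differed in a way that the members' own values do not show. For each measured member the 10 measured genes on each side were taken in the order of the RefSeq gene table. Around EGFR, on chromosome 7, 18 of 20 neighbours were higher on the TFAP2E array, 1 was lower and 1 read the same on both arrays, with a median difference of 0.30. Of the nearest measured genes on either side of EGFR, the actin nucleator COBL differed by 0.32 and LANCL2 by 0.34. The adaptor GRB10, which binds receptor tyrosine kinases, differed by 0.93, uridine phosphorylase UPP1 by 0.87 and FIGNL1 by 0.59, and these 3 lay above EGFR and past 1.5-fold. The exception was DDC-AS1, an antisense RNA, at -0.40. EGFR lay 0.22 above the median of its neighbours.

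HBEGF, on chromosome 5, had 9 of 20 neighbours higher and 11 lower, with a median of -0.01. None of them reached its difference, and the highest was TMCO6 at 0.25. HBEGF lay 0.61 above the median of its neighbours. PFDN1, a prefoldin subunit, and SRA1, the nearest measured genes on either side of HBEGF, differed by 0.02 and -0.19. The neuregulin gene NRG2, another ligand gene of the family, is 1 of the 20 neighbours and differed by 0.10.

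The loci of ERBB2, ERBB3 and TGFA had neighbour medians of -0.06, 0.06 and 0.04. As a yardstick, such medians were formed around all 11074 measured genes with 10 placed neighbours on each side, and their central 95% ran from -0.09 to 0.23. A median at or above that of EGFR was found around 67 of these genes, 0.605%, whereas 79.6% had one at or above that of HBEGF. Neighbouring windows overlap, so these shares are a description without a test. The higher readings of EGFR thus lie in a stretch of chromosome 7 where most neighbours read higher, and those of HBEGF do not lie in such a stretch. The copy number of these clones was not measured here, and its part in either result was not tested.

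**Figure D3:**
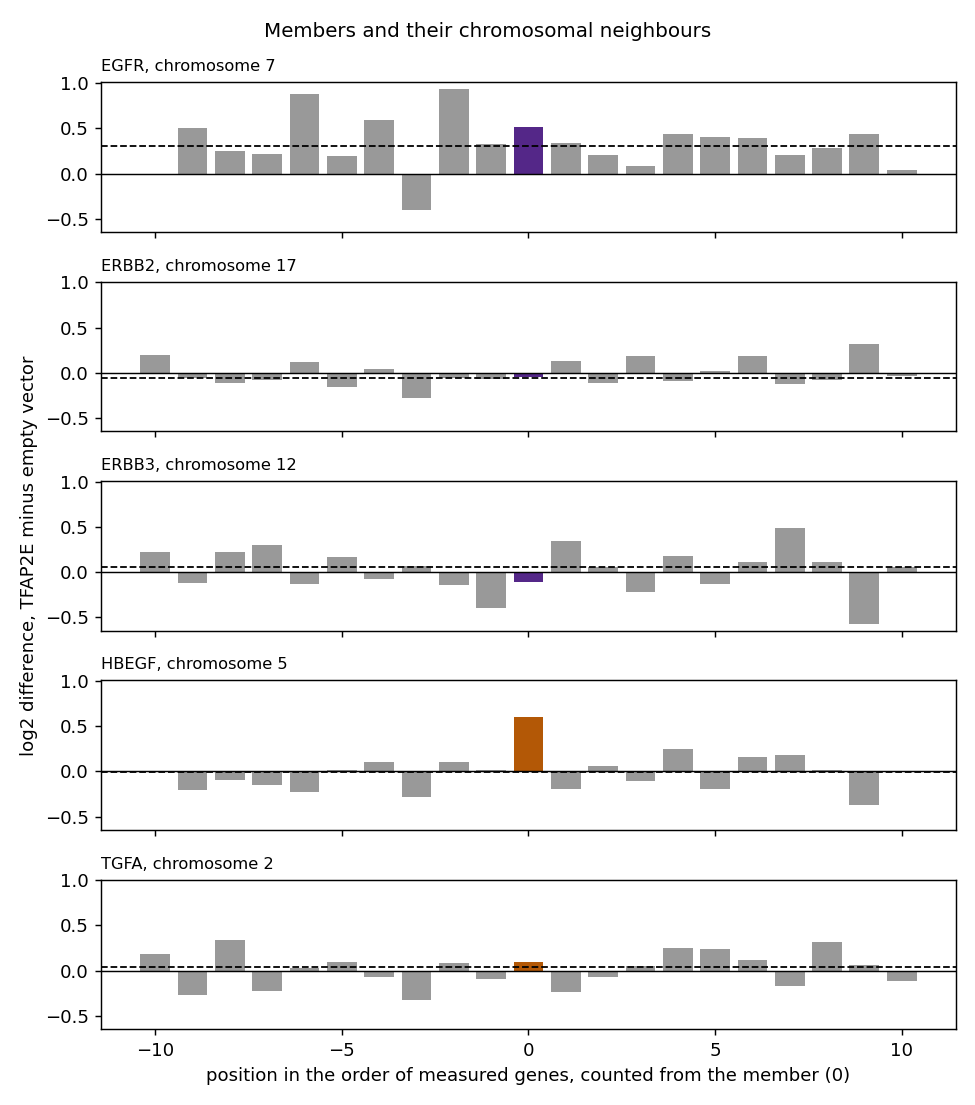
Log2 difference, TFAP2E minus empty vector (y axis), of each measured member (coloured bar at 0, receptors purple, ligands orange) and of the 10 measured genes on each side (grey bars), by position in gene order (x axis). The dashed line is the median of the 20 neighbours. It lies at 0.30 around EGFR and at -0.01 around HBEGF.

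The wider pathway was read from 7 lists with 95 genes in all, of which 74 were measured. Of these 74, 41 were higher and 33 lower, with a median of 0.04, the same as that of all measured genes, and none differed by 1.5-fold. Of the other ligands of the family, NRG2 alone was measured, at 6.67 on the TFAP2E array and 6.57 on the empty vector array. EGF, NRG1, NRG3 and NRG4 were dim.

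Genes for the release of ligands showed no common direction, with 9 of 13 higher (median 0.08). ADAM17, the main protease that releases HBEGF and TGFA, differed by 0.07 and ADAM10 by 0.09. The highest was TIMP3, an inhibitor of ADAM17, at 0.35 (8.15 on the TFAP2E array against 7.81), and the lowest the protease ADAM19 at -0.30. Of the genes for the inactive rhomboid proteins that carry ADAM17 to the cell surface, RHBDF1 differed by -0.22 and RHBDF2 by 0.12. Both lay inside the central 95% of all measured genes, so that no direction is read from them.

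In the list of receptor inhibitors and genes of receptor downregulation, 10 of 16 were higher, near the 59.2% of all measured genes. Its median of 0.10 became -0.000715 with a filter at the 75th percentile. ERRFI1 (also called MIG6), which binds and blocks the EGFR kinase, read 9.14 on the TFAP2E array and 8.60 on the empty vector array (difference 0.54). RNF41, a ubiquitin ligase that promotes the turnover of ERBB3, read 7.42 and 6.93 (0.49). LRIG1, a membrane protein that promotes receptor degradation, read 8.0 and 7.57 (0.43). ERRFI1 and RNF41 lay above the central 95% of all measured genes, and LRIG1 inside it. The receptor phosphatase PTPRK was lowest, at -0.27, and the ubiquitin ligase CBL differed by -0.05. RNF41 and LRIG1 were named after their values were seen, as was the look at the loci of these 3 genes. Their 20 nearest measured genes had medians of 0.05 around ERRFI1, 0.05 around RNF41 and 0.05 around LRIG1. Of these 20, 11 read higher around ERRFI1, 11 around RNF41 and 10 around LRIG1, against 18 of 20 around EGFR. Any part of the locus in the differences of these 3 genes was not tested.

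Adaptors and proximal enzymes were spread around 0, with 9 of 15 higher (median 0.04). NCK1, an adaptor to the actin cytoskeleton, was highest at 0.30, and the docking protein GAB1 lowest at -0.32. GRB2, which links the receptor to RAS activation, differed by 0.19. GRB7, which lies near ERBB2 on chromosome 17, differed by -0.11.

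Of 11 genes from RAS to ERK 5 were measured, 2 higher and 3 lower (median -0.03). MAP2K1, the kinase MEK1, was highest at 0.29, and ARAF lowest at -0.12. The other genes of the list were dim or not analysed here. Of the PI3K and AKT genes 6 of 7 were lower (median -0.07), from the regulatory subunit PIK3R3 at -0.27 to the catalytic subunit PIK3CB at 0.18.

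Genes induced by ERK activity split, with 9 of 17 higher and 8 lower (median 0.04). FOS, an immediate early transcription factor, was highest at 0.39, and the feedback inhibitor SPRY4 lowest, at 8.24 on the TFAP2E array and 8.80 on the empty vector array (difference -0.56). DUSP6, a phosphatase that switches off ERK and follows its activity, differed by 0.09 and EGR1 by 0.04. These 17 genes thus showed no common direction beside the higher readings of EGFR and HBEGF.

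**Figure D4:**
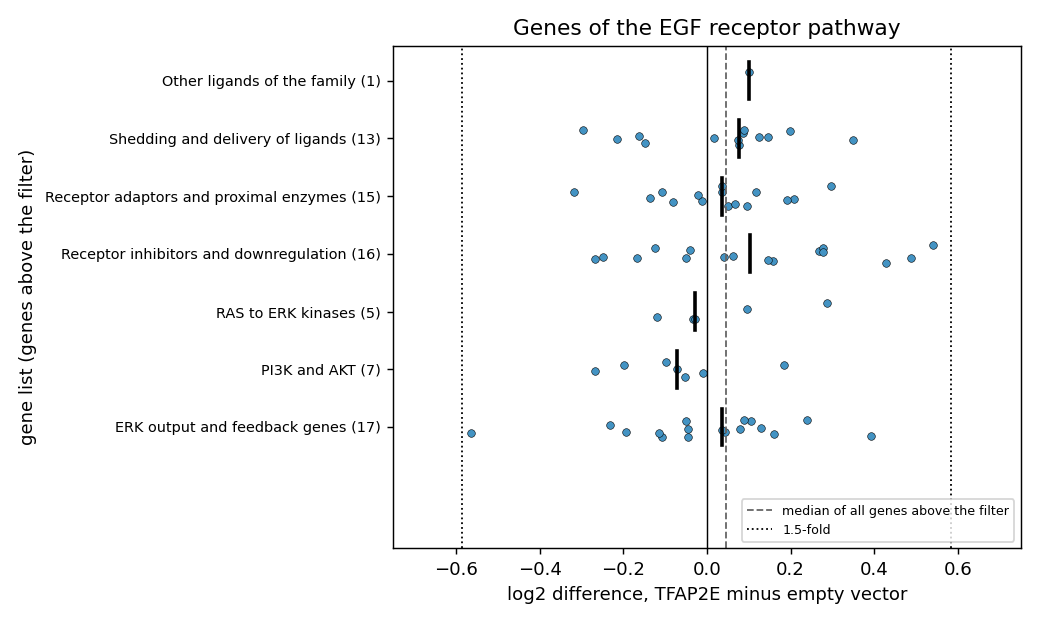
Log2 difference, TFAP2E minus empty vector (x axis), of the measured genes of 7 pathway lists (y axis, with the number of genes measured). Each point is 1 gene, black bars are list medians, the dashed line is the median of all measured genes (0.04) and dotted lines mark 1.5-fold. No point lies past 1.5-fold, with ERRFI1 at 0.54 and SPRY4 at -0.56 nearest to it.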

How the data were processed

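The authors used RMA, per the submitters' processing notes, and deposited 1 log2 value for each probe set and array. Its version, the software and the build are not stated in the sources used here. The table held 33297 probe sets on 2 arrays, 1 per group as given by the labels. Of these, 19460 had exactly 1 symbol in the platform annotation, 1754 had several and 12083 had none. Current symbols came from a RefSeq gene table (GRCh38.p14) by Entrez identifier, which matched 19429. For the 769 genes with several probe sets, that with the highest mean was used. A gene was called measured when the higher of its values reached the median of all probe sets.

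With 1 array per group no test was possible, and the number of arrays limits the precision. Counts use a 2-fold and a 1.5-fold rule, and lists are described by counts and medians. All members, the highest and lowest measured gene of each pathway list, genes past 1.5-fold, TFAP2E and the measured genes nearest to EGFR were to be named. Further genes (KRT20, MUC2, EPCAM, CDH1, VIL1, VIM, PTPRC, CD68, DDC-AS1, TMCO6, PFDN1, SRA1, ADAM17, ADAM10, RHBDF1, RHBDF2, RNF41, LRIG1, CBL, GRB2, GRB7, DUSP6 and EGR1) were chosen after their values were seen, for their place, level or role. The members and lists were chosen with earlier results of these data known. Neighbours came from the order of the RefSeq table, in which 11536 of the 11548 measured genes were placed. Promoter windows came from a table made from RefSeq, in which 9 of the 10 members were matched, all but ERBB3. The steps used Python 3.11.15 with pandas 2.3.3 and statsmodels 0.14.6 and were tested on simulated data. The differences put into those data were larger than that of any member, so that recovery of smaller ones was not tested. The alternatives were 3 other scalings (centring, quantile normalization, removal of a lowess trend), averaging of probe sets, 3 other filters, 2 other thresholds and 2 other numbers of neighbours.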

Additional observations from a re-analysis of the deposited data

How the results depend on the processing

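Across 3 other scalings, the differences of the 9 members and TFAP2E kept their sign. None moved by as much as 0.219, the standard deviation across measured genes. Centring adds the same amount to every gene. The values of the 2 arrays, each sorted by size, were already at most 0.158 apart. Rescaling could therefore move the larger differences little, and their kept signs are a weak check. Averaging of probe sets left the differences of the members and TFAP2E unchanged and could not move the members, which have 1 probe set each. EGFR ranged from 0.48 to 0.54 and HBEGF from 0.59 to 0.63, just above the 0.58 of 1.5-fold. The filter decided the medians of receptors and ligands. The ligand median of 0.35 became 0.0671 with no filter, -0.0429 with a filter at the 25th percentile and 0.10 at the 75th, where TGFA alone was left, and the receptor median of -0.05 became 0.24 at the 75th percentile, where ERBB3 no longer counted. The 75th percentile also left 5 higher and 8 lower genes past 2-fold. It moved the median of the list of receptor inhibition and downregulation from 0.10 to -0.000715. The median of the neighbours of EGFR was 0.20 with a filter at the 25th percentile, which admits dimmer neighbours. It was 0.33 with 5 neighbours on each side and 0.24 with 20. At 1.5-fold 1 member was higher, with 103 genes higher and 70 lower in all, and at 3-fold 2 and 2. The other 106 of 112 medians moved by less than 0.1. Among the 112, 18 changed sign, 3 of them for the RAS to ERK list, 2 for the ERK output list and 6 for the neighbours of TGFA. No paired analysis was possible because there is only 1 array in a group.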
